A study of Mus musculus with 8 samples.

Results

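The immunoglobulin genes of 8 mouse tumours are described here: the constant regions of the heavy and light chains, the variable (V) segments, and Jchain and Mzb1. Members were chosen by a rule on gene symbols, and number 363 of the 55450 genes in the table. They comprise 185 Ighv, 160 Igkv and 3 Iglv segments, 8 heavy-chain constant genes, Igkc, 4 Iglc genes, Jchain and Mzb1, and 130 of the V segments are annotated as pseudogenes. Of the 363, 184 had no count in any tumour and 179 had at least some.

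All tumours grew from MOC1, a mouse oral squamous carcinoma line, as flank implants in C57BL/6 mice, and all mice received anti-PD-1, an antibody that blocks an inhibitory receptor of T cells, for 32 days. The control arm (3 tumours) received control antisense oligonucleotides (ASOs) as well, and the other arm (5 tumours) received ASOs against Smyd3, a lysine methyltransferase. Of the Smyd3 ASO tumours, responders 1 and 3 and non-responders 1 and 2 are named so by the labels, and the tumour numbered 2 has no response mark and is called the unmarked tumour. The labels give no age, sex, dose or batch, and do not say that each tumour came from a separate mouse, so p-values measure only the spread between these tumours, which may be technical. Polyadenylated RNA of the whole tumour was sequenced. The library totals ran from 22103853 to 27258700 counts, and the members took between 0.0011% (control 1) and 0.4649% (responder 3) of them. Smyd3 itself had 258, 267 and 252 counts in controls 1 to 3, 214 and 121 in responders 1 and 3, 118 in the unmarked tumour and 201 and 112 in non-responders 1 and 2. Every Smyd3 ASO tumour was below every control, but the gene did not pass the test across all genes (log2 fold change -0.80, SE 0.29, edgeR FDR 0.246). The epithelial markers Krt5 and Krt14 were at 169612 counts or more in all tumours.

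An antibody chain is made from a V segment joined to shorter segments and spliced to a constant region. The heavy-chain locus on chromosome 12 carries, in order, the constant genes of IgM, IgD, IgG3, IgG1, IgG2b, IgG2c, IgE and IgA, and a B cell that switches class joins the same V region to a later one. A light chain is kappa (chromosome 6) or lambda (chromosome 16), and kappa is the usual choice in mice. Plasma cells, the secreting end stage of B cells, make these transcripts in great excess over other B cells, so a few of them can dominate the immunoglobulin RNA of a tissue. In bulk RNA, fewer such cells and less RNA per cell cannot be told apart, chains cannot be paired, and V-segment use is not a count of clones.

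The 7 V segments below are shown because the results turn on them: the leading Ighv segment of responder 3, responder 1 and non-responder 2, the leading Igkv segments of the same tumours, and a heavy and a light segment that classical B-1 cells are known to pair in antibodies against phosphatidylcholine. Igkv14-126, the light segment of that pair, was chosen after its values were seen. Each is the last 180 bases of the spliced germline transcript, 5′ to 3′, from GENCODE release M21 on mm10. Capitals mark a match to TANTNNTGN, where N is any base. In the 7 segments shown it falls on the codons of Tyr, Tyr or Phe, and Cys that end the third framework region. After these the joined, most variable loop begins. The search set no reading frame, and the pattern also fits other codons, so a match in other segments need not be these 3.
Ighv1-54: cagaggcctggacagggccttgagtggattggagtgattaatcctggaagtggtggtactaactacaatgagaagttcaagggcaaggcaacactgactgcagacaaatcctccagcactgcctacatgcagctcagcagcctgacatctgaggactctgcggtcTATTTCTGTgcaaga
Ighv5-17: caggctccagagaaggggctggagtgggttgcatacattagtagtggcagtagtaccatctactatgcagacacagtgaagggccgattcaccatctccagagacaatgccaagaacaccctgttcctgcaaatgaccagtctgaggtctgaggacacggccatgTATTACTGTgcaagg
Ighv1-80: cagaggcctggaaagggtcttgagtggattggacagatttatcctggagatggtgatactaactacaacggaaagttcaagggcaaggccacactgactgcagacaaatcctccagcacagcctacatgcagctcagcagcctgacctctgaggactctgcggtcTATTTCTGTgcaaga
Igkv10-96: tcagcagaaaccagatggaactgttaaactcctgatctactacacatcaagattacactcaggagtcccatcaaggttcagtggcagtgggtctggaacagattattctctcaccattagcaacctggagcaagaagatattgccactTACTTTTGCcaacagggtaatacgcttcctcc
Igkv1-117: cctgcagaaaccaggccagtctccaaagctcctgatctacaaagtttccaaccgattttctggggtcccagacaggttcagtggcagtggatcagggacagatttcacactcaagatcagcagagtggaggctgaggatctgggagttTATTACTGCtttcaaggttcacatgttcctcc
Ighv11-2: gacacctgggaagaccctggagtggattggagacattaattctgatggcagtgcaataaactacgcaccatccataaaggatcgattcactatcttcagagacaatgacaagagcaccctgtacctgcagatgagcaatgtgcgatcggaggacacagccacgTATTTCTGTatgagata
Igkv14-126: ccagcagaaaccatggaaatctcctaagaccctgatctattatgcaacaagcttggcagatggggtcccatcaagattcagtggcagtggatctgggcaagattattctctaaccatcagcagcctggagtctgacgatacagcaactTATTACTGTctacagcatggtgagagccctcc
The genes lie at chr12:115193675-115194134, minus strand (Ighv1-54), chr12:113859149-113859670, minus strand (Ighv5-17), chr12:115912344-115912776, minus strand (Ighv1-80), chr6:68631963-68632442, minus strand (Igkv10-96), chr6:68121046-68121827, plus strand (Igkv1-117), chr12:114048241-114048812, minus strand (Ighv11-2) and chr6:67896172-67896642, plus strand (Igkv14-126). The motif was searched on the transcript strand in the last 60 bases, and 92.2% of the 115 Ighv and 97.0% of the 100 Igkv segments not annotated as pseudogenes hold it, against 58.6% of 70 and 61.7% of 60 pseudogenes. Reads are assigned to germline segments by sequence, so near copies can share them. The closest measured copy of Igkv1-117 is Igkv1-110, at 96.8% identity, and that of Igkv10-96 is Igkv10-94, at 92.2%.

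Immunoglobulin RNA varied widely within the Smyd3 ASO arm. The sum ran over all members except Jchain and Mzb1, scaled to library size (TMM-normalised CPM, counts scaled to a fixed library total). It was 10.6, 25.7 and 50.1 CPM in controls 1 to 3. It was 626 CPM in responder 1, 4439 in responder 3, 28.7 in the unmarked tumour, 49.5 in non-responder 1 and 426 in non-responder 2. Responders 1 and 3 and non-responder 2 lay above every control, whereas the unmarked tumour and non-responder 1 lay within the range of the controls. Responder 3 held the most counts of 121 of the 179 members with counts.

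IgM was the leading isotype in 7 of 8 tumours. Ighm (chr12:113418558-113422730, minus strand), the constant region of the first isotype a B cell makes, stood at 7.73, 9.31 and 22.2 CPM in controls 1 to 3. It stood at 278 and 484 CPM in responders 1 and 3, 16.3 in the unmarked tumour, and 26.2 and 221 in non-responders 1 and 2. All Smyd3 ASO tumours except the unmarked one exceeded every control. On the log2(CPM + 1) scale the difference between arms was 3.07 (exact permutation test, two-sided, p = 0.0714, n = 3 and 5, adjusted over 17 measures 0.386), where the smallest p that 56 splits allow is 0.0357. Ighd, which mature naive B cells express beside Ighm, had 1 to 42 counts per tumour and no more than 1.52 CPM.

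**Figure D1:**
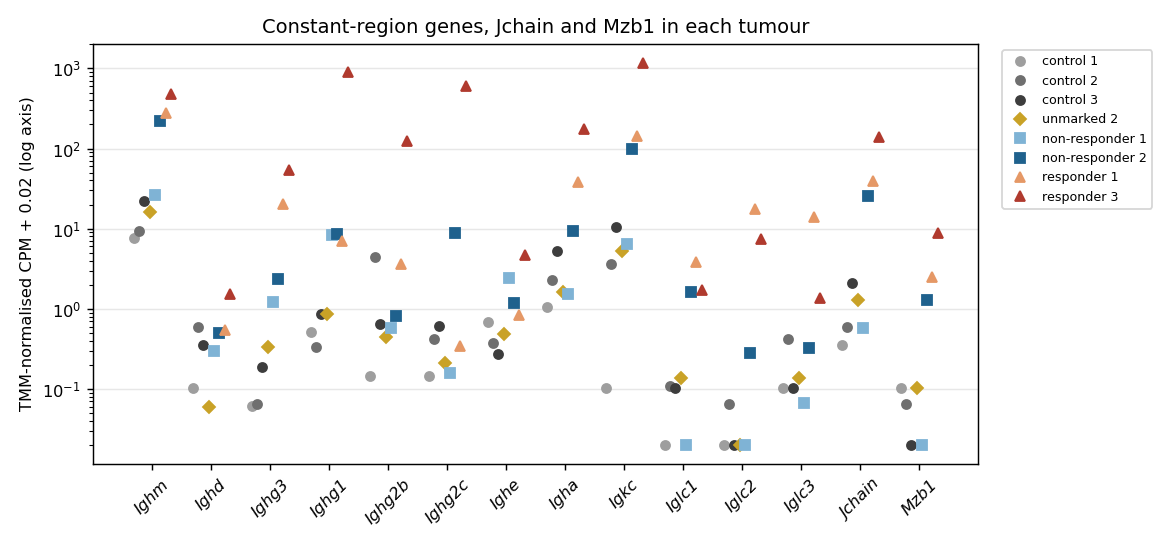
Level of each constant-region gene, Jchain and Mzb1 (x axis) in each of the 8 tumours, as TMM-normalised CPM plus 0.02 on a log axis, with 1 point per tumour. Responder 3 stands highest for every gene except the 3 Iglc genes, for which responder 1 is highest.

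IgG was far higher in responder 3 than in any other tumour. Their summed level was 0.789, 5.17 and 2.23 CPM in controls 1 to 3, 31.4 and 1666 CPM in responders 1 and 3, 1.78 in the unmarked tumour, and 10.2 and 20.5 in non-responders 1 and 2. Every tumour with a response mark exceeded every control, and the unmarked tumour fell within them. The difference between arms was 3.30 on the log2(CPM + 1) scale (exact permutation test, two-sided, p = 0.107, n = 3 and 5, adjusted over 17 measures 0.386). In responder 3, IgG was the leading isotype: 46013 of 64367 heavy-chain constant counts, or 71.5% (95% exact binomial interval 71.1 to 71.8, counting error only), with IgM at 20.8%. In no other tumour did IgG reach 30% of these counts. It was 7.66%, 29.2% and 7.36% in controls 1 to 3, 8.97% in responder 1, 8.83% in the unmarked tumour, and 25.1% and 8.13% in non-responders 1 and 2. With counts scaled per kilobase of transcript, the IgG share was 75.8% in responder 3, 33.4% in control 2 and 31.0% in non-responder 1. It was 9.13% to 11.5% in the remaining tumours. Per kilobase of transcript, IgG counts were 4.71 times the IgM counts in responder 3, and between 0.127 and 0.746 times in the other 7 tumours. The mean IgG share was 9.75 percentage points higher in the Smyd3 ASO arm (exact permutation test, two-sided, p = 0.75, n = 3 and 5), and the difference was -1.99 points without responder 3, so that tumour alone set the direction.

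**Figure D2:**
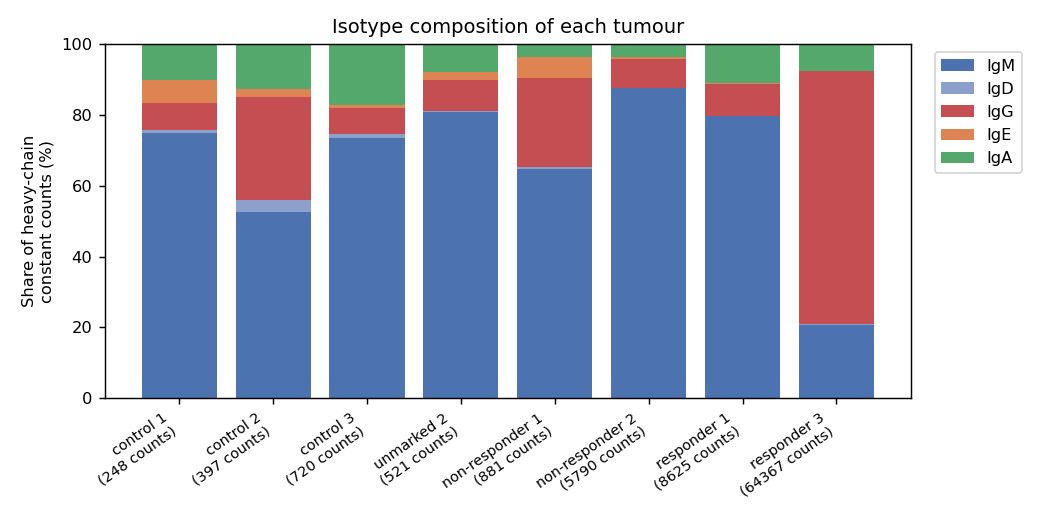
Share of the heavy-chain constant counts taken by each isotype (y axis, percent) in each tumour (x axis, with the number of counts behind each bar). IgM leads in all tumours except responder 3, where IgG takes 71.5%.

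Ighg1 was the leading IgG subclass in 5 of 8 tumours, and another subclass led in the other 3. Ighg3, a subclass known from T-independent responses, had 1, 1 and 4 counts in controls 1 to 3, 504 and 1508 in responders 1 and 3, 8 in the unmarked tumour, and 26 and 53 in non-responders 1 and 2. It made up 65.1% of the IgG counts of responder 1 (interval 61.6 to 68.5) but 3.28% of those of responder 3 (3.12 to 3.44). Ighg1, the subclass tied to IL-4 help, led in responder 3 with 24595 counts (53.5%) and in non-responder 1 with 180 of 221 counts (81.4%). It also led in control 1 (63.2%), control 3 (37.7%) and the unmarked tumour (47.8%), each on 53 IgG counts or fewer. Ighg2c, the subclass tied to interferon gamma in C57BL/6 mice, followed in responder 3 with 16458 counts (35.8%) and led narrowly in non-responder 2 with 201 of 471 (42.7%, against 42.3% for Ighg1), but had 8 counts in responder 1. Ighg2b led only in control 2, with 99 of 116 IgG counts (85.3%, interval 77.6 to 91.2), and was at 7.50% of the IgG counts in responder 3. These intervals cover counting error within a library, and each tumour is a single library.

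Ighe and Igha lie farthest along the locus. Igha, the constant region of the mucosal isotype, was at 1.04, 2.27 and 5.21 CPM in controls 1 to 3, 38.5 and 174.6 CPM in responders 1 and 3, 1.59 in the unmarked tumour, and 1.52 and 9.32 in non-responders 1 and 2. Only the responders and non-responder 2 exceeded every control (difference 1.98 on the log2(CPM + 1) scale, exact permutation test, two-sided, p = 0.286, n = 3 and 5). Ighe stayed low throughout, at 6 to 16 counts in controls and 12 to 128 in Smyd3 ASO tumours. Its share of heavy-chain constant counts was highest in control 1 (6.45%) and non-responder 1 (5.90%), and lowest in responder 3 (0.199%).

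Kappa constant counts were highest in the same 3 tumours as the heavy chains, and lambda stood out in responder 1. Igkc (chr6:70726435-70726966, plus strand), the only kappa constant gene, had 2, 81 and 246 counts in controls 1 to 3, 3534 and 32194 in responders 1 and 3, 137 in the unmarked tumour, and 141 and 2254 in non-responders 1 and 2. The summed lambda constant genes had 2, 12 and 4 counts in the controls, 875 and 287 in responders 1 and 3, 6 in the unmarked tumour, and 1 and 50 in the non-responders. By constant genes, responder 1 thus had more lambda and fewer kappa counts than responder 3. By V segments the order of lambda counts was the other way, with 448 Iglv counts in responder 1 and 711 in responder 3. Lambda was 19.8% of light-chain constant counts in responder 1 (interval 18.7 to 21.1) and 0.884% in responder 3 (0.785 to 0.991). The lambda share by V segments was again higher in responder 1, at 26.2% against 4.16%. Control 1 had only 4 light-chain constant counts, 2 of them lambda, so its share has an interval of 6.76 to 93.2. With that value included, the mean lambda share differed by -15.9 percentage points, Smyd3 ASO minus control (exact permutation test, two-sided, p = 0.321, n = 3 and 5). The difference was -1.69 points without control 1, and 8.01 points by V segments.

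**Figure D3:**
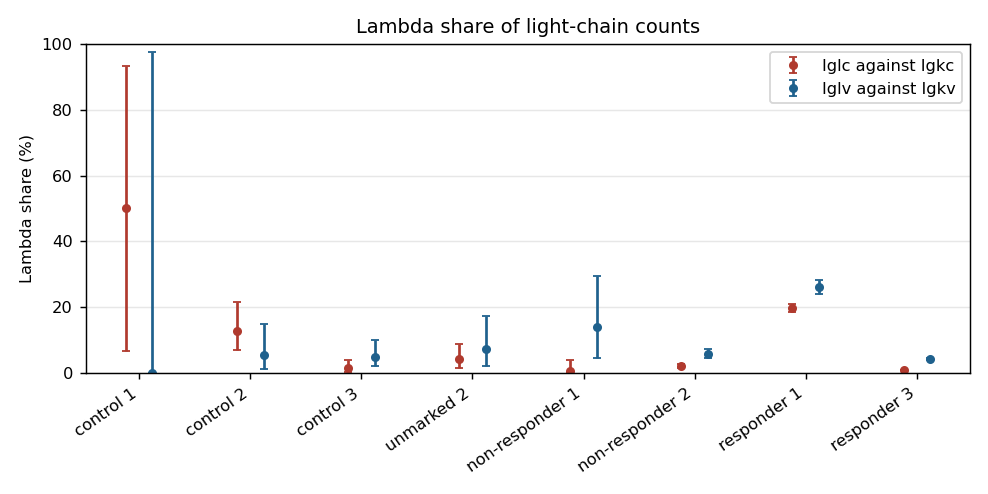
Lambda share of light-chain counts (y axis, percent) in each tumour (x axis), by constant genes (Iglc against Igkc) and by V segments (Iglv against Igkv), with exact 95% binomial intervals. Responder 1 stands at 19.8% and 26.2%, and the interval of control 1 spans most of the axis.

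Within lambda, Iglc2 and Iglc3 carried most of the counts of responder 1 (436 and 344 of 875), and Iglc2 those of responder 3 (203 of 287). In non-responder 2, Iglc1 led with 37 of 50. Iglc4 had no count in any tumour. Iglv1 was the leading lambda V segment wherever one was counted, with 280.07 counts in responder 1 and 607.33 in responder 3. Iglv2 had 161.93 and 85.67 counts in responders 1 and 3 and none in the other 6 tumours. The lambda genes are near copies of each other, so that the split between them rests on how reads were assigned.

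Constant counts were set against V counts of the same chain. Heavy-chain constant counts per Ighv count were 7.45 in responder 3, 12.2 in responder 1, 14.1 in non-responder 2, 13.2 in control 2 and 9.0 in control 3. They were 26.1 in the unmarked tumour, 51.8 in non-responder 1 and 248 in control 1, which had 1 Ighv count. Control 1 had 186 Ighm counts beside 2 Igkc counts. Per kilobase, Ighm was 33.1 times Igkc there, against 0.148 to 1.44 times in the other tumours.

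Jchain and Mzb1 were highest in the same 3 tumours. Jchain (chr5:88519809-88527891, minus strand), which links IgM and IgA into polymers, had 8, 13 and 49 counts in controls 1 to 3, 969 and 3867 in responders 1 and 3, 33 in the unmarked tumour, and 12 and 587 in non-responders 1 and 2. Mzb1, a chaperone of antibody assembly in the endoplasmic reticulum, had 2, 1 and 0 counts in the controls, 62 and 247 in the responders, 2.2 in the unmarked tumour, and 0 and 29 in the non-responders. For both, the responders and non-responder 2 stood apart from the other 5 tumours.

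V-segment use differed from tumour to tumour. In responder 3, Ighv1-54 took 2796 of 8646 Ighv counts (32.3%), Ighv1-22 took 1690 and Ighv6-3 took 592. Ighv1-54 had 5 counts in non-responder 2 and none in the other 6 tumours. In responder 1, Ighv5-17 led with 102 of 707 counts (14.4%), before Ighv1-82 with 98 and Ighv13-2 with 79. In non-responder 2, Ighv1-80 led with 138 of 410 (33.7%), before Ighv1-71 with 81.78 and Ighv1-11 with 51, and Ighv1-80 had 68 counts in responder 3 and none elsewhere. The 5 remaining tumours had 1 to 80 Ighv counts each. Ighv2-9-1 led in control 2 (19 of 30), Ighv4-1 in control 3 (14 of 80), Ighv1-15 in the unmarked tumour (8 of 20) and Ighv6-3 in non-responder 1 (9 of 17).

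Leading kappa segments recurred between tumours. Igkv1-117 led in responder 1 with 331.09 of 1261 Igkv counts (26.3%), in non-responder 2 with 563 (46.7%) and in the unmarked tumour with 31 of 52. In responder 3 it took 2.35%, and Igkv10-96 led with 4663.61 of 16399 (28.4%), before Igkv6-23 with 1869.78 and Igkv12-98 with 1865. Igkv12-98 had no count in any other tumour. Igkv6-32 had 271 counts in non-responder 2 and 579 in responder 3, and at most 1 in the other 6. Igkv1-110 led in control 2, Igkv2-109 in control 3 and Igkv8-16 in non-responder 1 (15 of 31).

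Ighv11-2 and Igkv14-126, the only B-1 pair looked at here, were a small part of the total. Ighv11-2 had 28 counts in responder 1, 93 in responder 3, 6 in non-responder 2, 1 in control 3, 1 in non-responder 1 and none in the other 3 tumours. Igkv14-126 had 46, 122 and 12 counts in responder 1, responder 3 and non-responder 2, and 0 to 5 in the other tumours. Both segments were thus highest in the same 3 tumours as the totals.

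The evenness with which counts were spread over segments overlapped between the arms. The effective number of Ighv segments (unbiased inverse Simpson number, the number of equally used segments that would give the same chance of drawing a segment again) was 2.51 in control 2 and 9.24 in control 3. It was 12.5 and 6.20 in responders 1 and 3, 4.32 in the unmarked tumour, and 3.58 and 5.58 in non-responders 1 and 2. For Igkv it was 3.47 and 7.51 in the same controls, 8.34 and 7.66 in the responders, 2.48 in the unmarked tumour and 3.75 and 3.53 in the non-responders. It is undefined in control 1, with 1 count per chain. The difference between arms was 0.55 for Ighv and -0.34 for Igkv (exact permutation test, two-sided, p = 0.952 for each, n = 2 and 5, smallest p 0.0952). Its sign turned when single tumours were left out: for Ighv to -2.81 without control 2 and -0.96 without responder 1, and for Igkv to 1.68 without control 3, 0.33 without the unmarked tumour, and 0.0097 and 0.064 without non-responders 1 and 2.

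At equal depth the 3 tumours with many counts held nearly the same number of segments. Thinned to 410 Ighv counts, responder 1 would show 36.8 segments, responder 3 37.0 and non-responder 2 38.0. Thinned to 1208 Igkv counts, they would show 42.5, 42.7 and 44.0. They differed in how much the leaders took: the top 3 Ighv segments held 39.5% of counts in responder 1, 58.7% in responder 3 and 66.0% in non-responder 2. The top 3 Igkv segments held 50.3%, 51.2% and 80.4%.

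**Figure D4:**
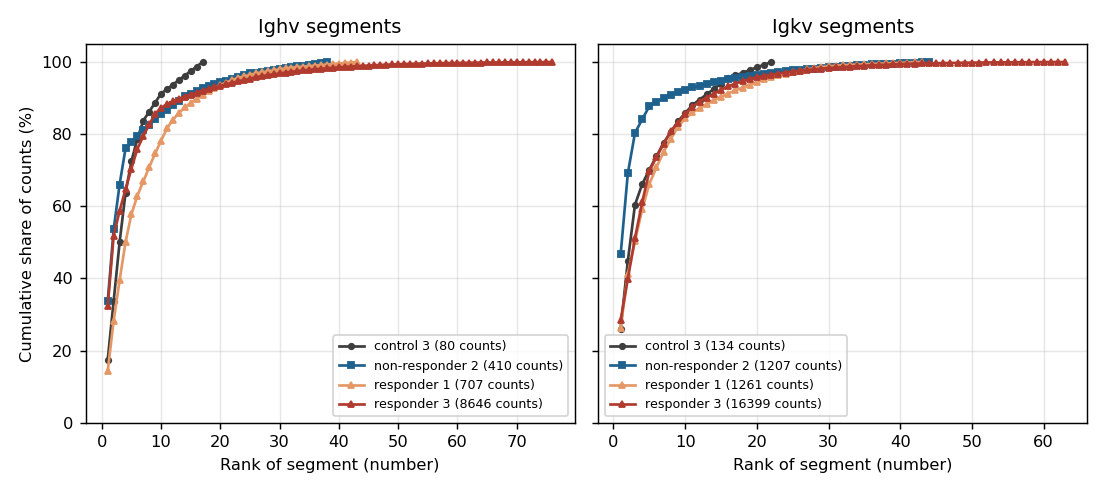
Cumulative share of counts (y axis, percent) over V segments ranked by count (x axis) in control 3, non-responder 2 and responders 1 and 3, for Ighv (left) and Igkv (right). In non-responder 2 the first 3 Igkv segments reach 80.4%, against 50.3% and 51.2% in the responders.

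The sets of segments in use overlapped in part. Of Ighv segments with 10 or more counts, responder 1 had 14 and responder 3 had 41, and 9 were in both lists, which is 64.3% of the first and 21.95% of the second. The share of Ighv use in common, the sum over segments of the lower of the 2 shares, was 19.3% between the responders, 28.3% between responder 1 and non-responder 2, and 16.6% between responder 3 and non-responder 2. For Igkv, responder 1 had 19 segments with 10 or more counts and non-responder 2 had 9, of which 8 were shared (42.1% and 88.9%), and the use in common was 51.3%. Responders 1 and 3 shared 15 Igkv segments (78.9% and 36.6%), with 34.7% of use in common. The lists of segments with 10 or more counts and their overlaps depend on depth. Responder 1, responder 3 and non-responder 2 had 707, 8646 and 410 Ighv counts, and 1261, 16399 and 1206.65 Igkv counts.

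Family and position also differed. The Ighv1 family holds 47.0% of the 115 non-pseudogene Ighv segments, and took 50.6% of Ighv counts in responder 1, 78.3% in responder 3, 81.0% in non-responder 2 and 61.3% in control 3. The Ighv5 family, 9.57% of the segments, took 18.4% in responder 1, 4.06% in responder 3, 10.2% in non-responder 2 and 2.50% in control 3. The median count lay 1161 kb from Ighm in responder 1, 1771 kb in responder 3, 2320 kb in non-responder 2 and 1091 kb in control 3, against 1190 kb for the median non-pseudogene segment.

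For tests gene by gene, 45 members passed the filter on low counts, 31 of them V segments. Of the 45, 30 passed with no control at the cutoff and 43 had responder 3 at it, so the filter chose members that are high there. Between the arms, 0 of 45 passed at FDR 0.05 in edgeR's quasi-likelihood test, where 0% of all 16911 genes passed. At an unadjusted p under 0.05 there were 23 of 45, against 15.5% of all genes, and DESeq2 called 11 of 36, all higher, against 6.26% of all genes. The nearest in edgeR were Ighg3 (log2 fold change 7.45, SE 2.18, FDR 0.175) and Ighm (3.97, SE 1.19, FDR 0.187).

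Between responders and non-responders, 0 of 45 passed in edgeR (0% of all genes). At an unadjusted p under 0.05 there were 25 of 45, against 8.49% of all genes, and DESeq2 called 8 of 34, all higher, against 1.41% of all genes. Ighg3 was 4.41 higher on the log2 scale (SE 0.63, FDR 0.365) and Igha 4.29 higher (SE 1.14, FDR 0.506). The Ighm difference was 1.63 (SE 0.93, FDR 0.657), and non-responder 2 lay close to responder 1. Non-responders against controls also gave 0 of 45 in edgeR (0% of all genes), with 9 of 45 at an unadjusted p under 0.05 against 9.24% of all genes. DESeq2 called 2 of 34 there, Ighg3 and Ighm, both higher, against 2.13% of all genes.

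Responders against controls gave 8 of 45 higher and 0 lower in edgeR at FDR 0.05, against 1.38% of all genes higher and 1.66% in either direction. At an unadjusted p under 0.05 there were 37 of 45, against 16.6% of all genes, and DESeq2 called 23 of 45, all higher, against 6.82% of all genes. Of the 45, 43 had responder 3 at the filter cutoff and 30 had no control at it. These shares are therefore no test of the members against all genes, and the same limit holds for the other comparisons that include responder 3. The 8 were Ighg3, Iglc2, Iglv2, Ighv1-82, Ighv8-12, Ighv11-2, Igkv6-15 and Igkv15-103. Ighg3 rose by 8.70 on the log2 scale (SE 0.71, FDR 0.0135), from 6 counts over the controls to 2012 over the responders. Iglc2 had 1 count over the controls and 639 over the responders, a ratio per TMM-scaled library total of 859 (counting interval 154 to 33980, FDR 0.0245). Igkv6-15 had 2 and 702 counts, a ratio of 472 (130 to 3904, FDR 0.0277). Iglv2 and Igkv15-103 had none in the controls and were at least 111-fold and 95.5-fold higher, against a floor of 3 counts over the group (FDR 0.0373 and 0.0371). The other 3 had 1 to 3 counts over the controls, and FDRs of 0.0329 (Ighv1-82), 0.0357 (Ighv11-2) and 0.0465 (Ighv8-12).

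Ighm (log2 fold change 4.86, SE 0.90, FDR 0.0544), Ighg1 (9.65, SE 1.86, FDR 0.0631) and Igha (5.23, SE 1.01, FDR 0.0647) did not pass in that comparison, although both responders lay above every control in all 3 genes. The calls depended on single libraries: without control 1 or control 3, 0 members passed, without control 2 or responder 3 only Ighg3 did, and without responder 1 there were 5 (Ighg1, Ighg2c, Ighg3, Igkv10-96 and Igkv4-91). Without non-responder 1 or 2, 9 and 10 members passed, but Iglv2, Ighv8-12, Igkv6-15 and Igkv15-103 passed in neither (FDR 0.051 to 0.0861), nor did Ighv11-2 without non-responder 1 (0.0506). With V segments summed by chain, and the IgG and lambda constant genes summed, 1 of 12 classes passed, Iglv (7.22, SE 1.20, FDR 0.042), against 1.62% of the 16878 features. The comparisons with controls share the 3 control tumours.

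Other genes of the B cell lineage were compared with these levels. Of 19 plasma cell and secretory genes, 18 were tested and 0 passed in any of the 4 comparisons. In the arm comparison their median log2 fold change was 0.38, against 0.01 over all genes, with 15 above 0. Tent5c, with the smallest p of the list, was at 13.1 to 19.6 CPM in controls and 18.5 and 45.5 in responders 1 and 3. It was at 36.0 in the unmarked tumour and 24.8 and 47.2 in the non-responders (log2 fold change 1.05, SE 0.32, FDR 0.188). Xbp1 was at 178 to 184 CPM in controls, 270 and 297 in responders 1 and 3 and 232 in the unmarked tumour. The non-responders had 171 and 221 CPM of Xbp1 (0.39, SE 0.17, FDR 0.304). Irf4, a factor that plasma cells need, had 12, 35 and 12 counts in controls 1 to 3, 62 and 234 in responders 1 and 3, 59 in the unmarked tumour and 21 and 54 in the non-responders (log2 fold change 1.96, SE 0.76, FDR 0.269). Sdc1, a plasma cell marker that epithelium shares, was at 12838 counts or more everywhere and does not report plasma cells here. Tnfrsf17, the BCMA receptor, had 1 and 9 counts in responders 1 and 3 and none in the other 6 tumours. Prdm1, of the same list, was lower in responders 1 and 3 (39.1 and 41.0 CPM) than in every control (44.2 to 63.1 CPM). It was at 55.6 CPM in the unmarked tumour and 78.5 and 51.4 in the non-responders (arm comparison -0.058, SE 0.23, FDR 0.931).

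Of 16 B cell surface and identity genes, 13 were tested and 0 passed in any of the 4 comparisons, with a median of 0.67 between the arms. Of the 13, 12 were above 0 between the arms. Ebf1, with the smallest p of the list, went the other way (-0.71, SE 0.30, FDR 0.304). It had 206, 297 and 193 counts in controls 1 to 3, 157 and 263 in responders 1 and 3, 121 in the unmarked tumour and 87 and 134 in the non-responders. Ms4a1, which encodes CD20, had 0 to 3 counts in all tumours except responders 1 and 3, with 13 and 34. Cd79a, a chain of the B cell receptor, had 1, 3.62 and 8 counts in the controls, 32 and 92 in the responders, 3 in the unmarked tumour and 3 and 15 in the non-responders (arm comparison 2.56, SE 1.20, FDR 0.354). Ms4a1 and Cd79a were thus at 92 counts or fewer in responder 3, where Ighm had 13362.

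Of 18 germinal centre and class switching genes, 12 were tested and 0 passed in any of the 4 comparisons (median 0.51 between the arms). The 10 receptors and transporters of immunoglobulin were all tested and 0 passed (median 0.46). Trim21, with the smallest p of these 10, was at 31.7 to 46.5 CPM in controls and 62.9 and 72.7 in responders 1 and 3. It was at 79.3 in the unmarked tumour and 40.5 and 66.0 in the non-responders (0.78, SE 0.22, FDR 0.164). Pigr, which carries IgA and IgM across epithelium, had 74, 6 and 156 counts in the controls, 732 and 868 in the responders, 57 in the unmarked tumour and 49 and 173 in the non-responders (2.14, SE 1.19, FDR 0.43). Of 7 genes of the surrogate light chain and recombination, only Vpreb1 was tested, with 2 to 13 counts per tumour, and it did not pass (0.43, SE 0.55, FDR 0.763).

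Markers of other tissues also varied between tumours. The 20 skeletal muscle genes summed to 37.7 to 123 CPM in controls, 2909 and 14303 in responders 1 and 3, 6446 in the unmarked tumour, and 853 and 1245 in the non-responders, and only Pvalb and Tcap were at 0 in any tumour (control 2). The unmarked tumour had the second-highest muscle sum, with immunoglobulin within the range of the controls. In responders against controls, 18 of 20 muscle genes were higher at FDR 0.05 in edgeR, against 1.38% of all genes. So were 3 of 9 tested adipocyte genes (Plin4, Cidec and Cfd) and 1 of 10 T cell genes (Cd3d). By sign alone, 20 of 20 muscle, 8 of 9 adipocyte and 10 of 10 T cell genes were above 0. Their median log2 fold changes were 6.69, 6.41 and 2.09, against 0.003 over all genes. None of these lists had a gene past FDR 0.05 in the other 3 comparisons. The adipocyte list summed to 47.6 to 63.5 CPM in controls and 55.4 to 319 in Smyd3 ASO tumours. Fabp4 and Lipe together took most of it in every tumour but responder 3, where Fabp4 had 97.5 and Cfd 74.4 CPM. The T cell list summed to 29.0 to 59.4 and 42.1 to 186, with responder 3 highest in both. Adipoq, Cfd, Cidec and Plin1, named here after their values were seen, were highest in the 3 tumours with the most immunoglobulin. Plin4, Lipe and Cidea, of the same list, were not. Plin4 had 250 counts in the unmarked tumour against 169 in responder 1. Lipe was highest in non-responder 1 (39.0 CPM, against 37.4 in responder 3 and 20.7 in responder 1). Cidea was highest in control 1 (3.45 CPM, against 0.362 in responder 3). Adipoq had 475, 28 and 18 counts in responder 3, responder 1 and non-responder 2 and at most 1 elsewhere. Cfd had 2055, 177 and 77 counts in the same tumours and at most 21 elsewhere. Cidec had 439, 26 and 12, with at most 7 elsewhere, and Plin1 had 327, 11 and 11, with at most 3 elsewhere. In the other 5 tumours, Adipoq was at 0 in controls 2 and 3 and non-responder 1, Plin1 in controls 2 and 3 and the unmarked tumour, Cidec in controls 1 and 3, and Cfd in control 3. No T cell gene was at 0 in any tumour. Their part in the immunoglobulin differences was not tested.

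The list of 14 genes of lymph node stroma and high endothelial venules, 8 of them tested with 0 passing, summed to 21.7 to 30.9 CPM in controls, 20.4 and 86.8 in responders 1 and 3, 57.7 in the unmarked tumour and 11.4 and 17.4 in the non-responders. Ccl21a took 37.5 CPM of that sum in responder 3 and 32.2 in the unmarked tumour. The next highest in responder 3 were Lyve1, Cxcl13 and Ltb, with 17.1, 13.4 and 11.2 CPM. Cxcl13, a chemokine that draws B cells, had 5, 94 and 12 counts in controls 1 to 3, 78 and 369 in responders 1 and 3, 3 in the unmarked tumour and 19 and 65 in the non-responders. Ccl19, a chemokine of T cell zones, had 22.55 and 46.06 counts in responders 1 and 3 and at most 3.91 elsewhere (responders against controls 3.29, SE 0.73, edgeR FDR 0.0854). Lyve1 was named here after its values were seen. The venule genes Madcam1 and Chst4 had 3 and 5 counts in responder 3, and 2 and 6 in control 2. Elsewhere both were at 0, except for 1 Chst4 count in responder 1. Glycam1 had 14 counts in responder 3, 8 in responder 1, 5 in non-responder 2 and at most 1 elsewhere. The part of these genes in the immunoglobulin differences was not tested. In non-responder 2, with 426 CPM of immunoglobulin, Madcam1 and Chst4 were at 0, as in most of the tumours. None of the 8 tumour epithelial genes passed in any comparison (median -0.19 between the arms).

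**Figure D5:**
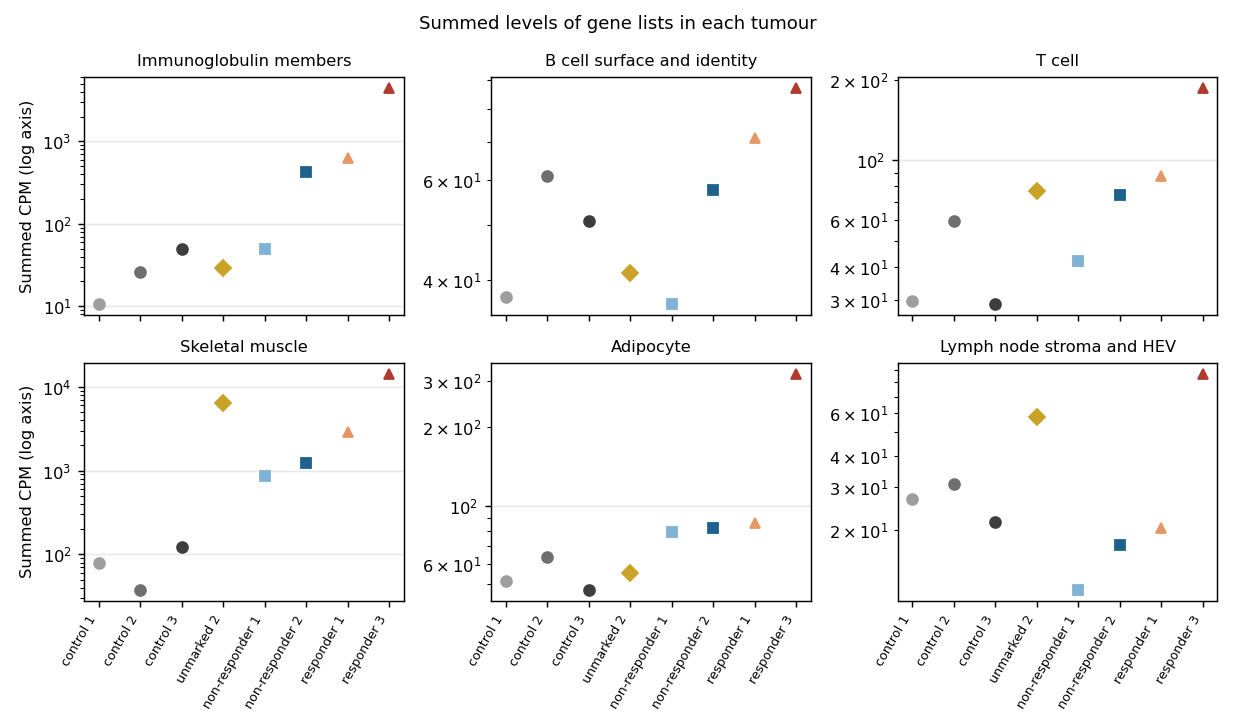
Summed CPM (log axes with different ranges) of the immunoglobulin members and of 5 gene lists in each tumour. Jchain and Mzb1 are left out of the immunoglobulin sum, and each tumour has 1 point. The unmarked tumour is second highest in the muscle panel, at 6446 CPM, and within the controls in the immunoglobulin panel, at 28.7 CPM.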

How the data were processed

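Whole-tumour polyadenylated RNA was measured in 8 tumours with a TruSeq stranded mRNA kit, per the labels' protocols. Per the submitters' processing notes, the tools were RSEM 1.3.0, STAR 2.7.0f, cutadapt 1.18 and bcl2fastq 2.17, and the build was mm10. The deposited table holds the authors' RSEM expected counts per gene, not scaled to library size. The annotation and the strand setting are not given in the sources used here. Coordinates, lengths and segment sequences came from GENCODE release M21, in which all 55450 identifiers occur. V reads are assigned to germline segments, so reads with many mutations or over the joint can be lost.

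Expected counts were rounded for tests. Genes with 2 or more libraries at 0.424 CPM (10 counts in the median library) and a total of 15 were tested (16911 genes, holding 99.93% of counts) with edgeR 4.0.16 (robust quasi-likelihood, TMM, Benjamini-Hochberg over all genes) in R 4.3.3. The arm comparison used the arm as only term, and the others a model with 4 groups. The pooled spread is assumed to hold for the unmarked tumour. DESeq2 1.42.0 was an alternative. SEs are the log2 fold change over the root of F. Sums (with a pseudocount of 1 CPM), shares and effective numbers were compared with exact permutation tests in scipy 1.17.1, adjusted over 17 measures. No p is given for total immunoglobulin, the sum over all members except Jchain and Mzb1. Intervals are exact binomial or exact for count ratios at 95% and cover counting error only. The fits were tested on simulated data. No batch is given in the labels.

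The members and gene lists were chosen with earlier results of these data known. The plan was to name all constant genes, Jchain and Mzb1, and the top 3 Ighv and Igkv and top 1 Iglv segments per tumour. It also held members past FDR 0.05, up to 4 genes per list by smallest p between the arms, and cell type markers. Not all of the planned segments and list genes are given here, and some other list genes are. Alternatives were normalization, pseudocount, filter, DESeq2, the replicate block, the breadth measure, and each tumour left out.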

Additional observations from a re-analysis of the deposited data

Results flagged for a closer look

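Among the 5 Smyd3 ASO tumours, the highest tumour stood apart from the next by more than 0.71 of the whole range (Dixon's 95% value for 5 samples) in 14 of 25 measures checked. That value flags about 1 in 20 groups by chance only where values are spread normally. The levels were checked in CPM without a log scale, and total immunoglobulin ran from 28.7 to 4439 CPM in these tumours. The number of flags was thus not set against chance, and these measures share their reads. Responder 3 was the tumour that stood apart in 12 of them. These were total immunoglobulin (4439 CPM), summed IgG (1666 CPM), Ighg1 (890.5 CPM), Ighg2c (595.9 CPM), Ighg2b (125.0 CPM) and IgA (174.6 CPM). They also included Igkc (1166 CPM), summed Ighv (313.0 CPM), summed Igkv (593.8 CPM), Jchain (140.0 CPM), Mzb1 (8.94 CPM) and the IgG share of heavy-chain constant counts (71.5%).

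Responder 1 was the tumour that stood apart in the lambda share of light-chain constant counts (19.8%) and in Iglc3 (13.9 CPM). IgM was not among the measures in which a tumour stood apart, with 484, 278 and 221 CPM in its 3 highest tumours.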

How the results depend on the processing

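In the arm comparison the differences in total immunoglobulin, IgM, IgG and IgA kept their sign and stayed short of the threshold under every alternative run. With one tumour left out they ran from 2.50 to 4.30, 2.52 to 3.72, 1.88 to 4.19 and 1.05 to 2.58 on the log2 scale. With so few tumours the exact permutation test allows no p under 0.05. The runs with one tumour left out could thus not have passed, and only their sign and size are informative. The IgG share difference ran from -1.99 points (without responder 3) to 17.0, and the lambda share difference from -25.9 to -1.69, and was 8.01 by V-segment counts. The breadth differences ran from -2.81 to 3.915 effective Ighv segments, with -0.96 without responder 1, and from -2.36 to 1.68 effective Igkv segments. For Igkv the values were 0.33, 0.0097 and 0.064 without the unmarked tumour, non-responder 1 and non-responder 2, 0.081 by the exponential of the Shannon entropy and 12.4 by segments with 10 or more reads. For Ighv these measures gave 2.35 and 9.30, with the sign of the value reported. With control 1 included, an alternative added after seeing the data, they gave 4.50 and 10.13 for Ighv and 2.51 and 13.07 for Igkv. The planned thinning to the smallest count was not run, since control 1 has 1 read per chain. Thinned without it, to 17 Ighv and 31 Igkv reads, an alternative chosen after seeing the data, the differences were 0.24 and -0.97 segments. The cause of these changes was not tested.

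DESeq2 called 11 members between the arms, 8 between responders and non-responders, 23 between responders and controls and 2 between non-responders and controls, against 0, 0, 8 and 0. With no count filter, 1 (Iglv2) and 14 passed between responders and non-responders and between responders and controls. With one tumour left out, 0 to 1 passed between responders and non-responders (Ighg1, without responder 1) and 0 to 10 between responders and controls, while the other comparisons stayed at 0. Of constant genes that did not pass, the sign turned without responder 3 between the arms for Ighd (-0.021 to 1.44 over the tumours left out) and Ighg2b (-0.35 to 6.10). Between responders and non-responders it turned without that tumour for Ighg1 (-0.28 to 6.72), Ighg2c (-3.75 to 11.01) and Ighe (-1.13 to 1.38). Between responders and controls it turned for Ighg2c (-0.20 to 10.63). V segments that did not pass are not covered by this list.

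Same-numbered tumours of the arms did not deviate together (correlations -0.03, 0.00015 and 0.08), so the numbers were not taken as pairs. With a replicate block over the 6 numbered tumours, 2 members passed (Ighg3 and Igkv10-96), against 0 without the block in the same tumours, a comparison added after seeing the data. With that block the IgG share difference was 15.02 points, over tumours that include no non-responder. The blocked breadth differences were -0.62 effective Ighv and -0.42 effective Igkv segments, over 4 tumours in 2 pairs, since breadth is undefined in control 1. Where counts are few, depth limits every share: control 1 has 4 light-chain constant counts.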
